A study of Mus musculus with 2 samples.

Results

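Keratins, cadherins, Epcam and vimentin were followed in cells of PyMT-M and PyMT-N mammary tumors. These cells fell below set limits for endothelial, immune and fibroblast genes. The 10 genes were Krt8, Krt18, Krt19, Krt7, Krt14, Krt5, Epcam, Cdh1, Cdh2 and Vim, out of 33696 genes counted, and all 10 were found by symbol. Cells with at least 2000 detected genes and at most 10% of their unique molecular identifiers (UMIs, each a counted RNA molecule) from mitochondrial genes were kept. A kept cell was taken as a tumor cell when it had fewer than 2 UMIs of Pecam1, Flt1, Emcn and Kdr together (the endothelial gate), fewer than 2 of Ptprc and Tyrobp together (the immune gate) and under 3000 CPM of Col3a1 (the fibroblast gate). CPM are UMIs scaled to a total of 1000000 per cell or group of cells. This left 5231 tumor cells of 5871 kept cells in PyMT-M and 3693 of 5386 in PyMT-N.

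Both models are sublines of the MMTV-PyMT mammary tumor model, in which a mammary tumor virus promoter drives the polyoma middle T oncogene. The study classes PyMT-M as High-MAC, rich in macrophages, and PyMT-N as Low-MAC, rich in neutrophils instead. Cells were injected orthotopically into the mammary fat pad of female C57BL/6 mice aged 6 to 8 weeks, and neither group carried a further allele or drug treatment in the labels. Cells were depleted of CD45+ and Ter119+ cells and sorted as CD31+ CD144+, so every tumor cell described here had passed an endothelial sort and may not represent the tumor cells of the whole tumor. Cells of 3 tumors were pooled into 1 library per model before droplet-based 3′ sequencing. With 1 library per group no difference could be tested, so values are given with exact 95% intervals that cover counting error only. The PyMT-M tumor cells summed to 129290940 UMIs (median cell 23767) and those of PyMT-N to 84460566 (median cell 20770), so a gene with no UMI could have reached 0.0232 CPM and 0.0355 CPM (3 counts).

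Keratins form the intermediate filaments of epithelial cells, and each filament is built from pairs of a type I and a type II protein. Krt8 (type II) and Krt18 (type I) are the usual pair of simple and luminal epithelium, with Krt7 (type II) and Krt19 (type I) beside them, while Krt5 (type II) and Krt14 (type I) pair in basal and myoepithelial mammary cells. Cdh1 encodes E-cadherin, the adhesion receptor of epithelial junctions, Epcam a membrane glycoprotein of epithelial cells, Cdh2 N-cadherin of neural and mesenchymal cells, and Vim the intermediate filament protein of mesenchymal, endothelial and blood cells. Loss of Cdh1 and keratins with gain of Cdh2 and Vim is the textbook picture of epithelial-mesenchymal transition.

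The label of a tumor cell rested on low counts of the gate genes, since the transgene was not among the features used. Over the tumor cells, 12 endothelial markers summed to 43.7 CPM for PyMT-M (34.4 of it Egfl7) and 17.6 for PyMT-N, while the endothelial gate gave 4052 and 6831, and 10 immune markers summed to 12.3 and 10.9. Defining epithelial markers outside the 10 genes were low as well. Of 9 such markers, among them Cldn3, Cldn4, Cldn7, Esrp1, Grhl2, Elf3, Ehf and Spint2, 3 had no UMI in PyMT-M and 1 had none in PyMT-N, and their sum was 43.6 CPM in PyMT-M, of which Spint2 gave 41.4, and 6.18 in PyMT-N. Fibroblast markers summed to 399 and 728 CPM, pericyte and smooth muscle markers to 267 and 318, glial markers to 2.46 and 53.2 (S100b at 48.4) and adipocyte markers to 0.0387 and 0.0237. At least 2 UMIs of the fibroblast markers were in 94.9% of PyMT-M and 96.2% of PyMT-N tumor cells. For pericyte and smooth muscle markers the shares were 75.5% and 89.7%. The cells are therefore called tumor cells by the rule alone. As the gates fix, Pecam1 was at 1.60 and 1.55 CPM in tumor and 580 and 777 CPM in endothelial cells, and Col3a1 at 303 and 126 CPM in tumor cells. Near the limits lay 370 PyMT-M and 422 PyMT-N tumor cells with 1 endothelial-gate UMI. The libraries shared 20 barcodes, 5 of them among tumor cells.

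Promoter windows of 3 genes are shown because the results turn on Krt8 and Krt18, neighbouring genes of which PyMT-M tumor cells expressed only the first at more than a trace, and on Epcam. In the RefSeq annotation of GRCm38.p6, Krt18 is the next protein-coding gene beside Krt8 on chromosome 15, with 2 long noncoding RNA genes between them. Each sequence is the 250 bases before the transcription start, 5′ to 3′ on the strand of the gene. Capitals mark CACCTG or its reverse complement CAGGTG, since both strands were searched, the letters of the E2-box to which the Snai and Zeb repressors are known to bind. Krt8 lies at chr15:102004343-102004592 on the minus strand, Krt18 at chr15:102027966-102028215 on the plus strand and Epcam at chr17:87635729-87635978 on the plus strand.
Krt8: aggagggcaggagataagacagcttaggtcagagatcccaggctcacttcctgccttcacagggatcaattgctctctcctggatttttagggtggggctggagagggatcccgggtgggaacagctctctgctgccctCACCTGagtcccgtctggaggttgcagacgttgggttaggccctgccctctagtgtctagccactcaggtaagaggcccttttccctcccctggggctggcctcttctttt
Krt18: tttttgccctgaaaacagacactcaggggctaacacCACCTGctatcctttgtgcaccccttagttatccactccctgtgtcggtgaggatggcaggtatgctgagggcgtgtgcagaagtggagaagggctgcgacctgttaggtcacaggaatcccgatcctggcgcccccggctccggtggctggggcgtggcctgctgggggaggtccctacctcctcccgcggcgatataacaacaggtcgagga
Epcam: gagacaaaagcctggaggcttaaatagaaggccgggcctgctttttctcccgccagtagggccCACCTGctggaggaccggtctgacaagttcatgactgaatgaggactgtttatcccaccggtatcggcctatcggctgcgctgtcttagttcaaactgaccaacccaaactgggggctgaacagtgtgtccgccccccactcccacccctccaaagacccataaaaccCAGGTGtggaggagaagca
The Krt8 window held 1 match, beginning 111 bases before the start, and the Krt18 window also 1, beginning 214 bases before it. The Epcam window held 2, beginning 187 and 19 bases before the start, 1 on each strand. Windows of 7 of the 10 genes were searched, and Krt19, Cdh1 and Cdh2 were not among them. Those of Krt7 and Krt5 held 1 match each, and those of Krt14 and Vim none. Of all 32851 windows of the same length, 17.2% held the motif and 2.06% held it more than once. A match is a description of the letters and no sign of binding.

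Krt8 was the keratin that both libraries shared. It was detected in 4691 PyMT-M tumor cells, 89.7% (exact Clopper-Pearson interval 88.8 to 90.5%), and in 3624 PyMT-N tumor cells, 98.1% (97.6 to 98.5%). Its level was 264.6 CPM (262 to 267) in PyMT-M against 792 CPM (786 to 798) in PyMT-N, which was 2.99-fold higher in PyMT-N. The log2 ratio was -1.58 (-1.60 to -1.56), with PyMT-M as the numerator here and throughout. Per cell, PyMT-M cells held a median of 5 Krt8 UMIs, with 0 at the 10th and 14 at the 90th percentile and at most 51, and PyMT-N cells a median of 13, with 3 and 38 at those percentiles and at most 176. The distributions overlapped widely.

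Krt18, the partner of Krt8, was abundant in PyMT-N and almost absent from PyMT-M tumor cells. PyMT-M tumor cells held 10 Krt18 UMIs in all, in 10 cells with 1 UMI each, 0.191% of cells (0.0917 to 0.351%) and 0.0773 CPM (0.0371 to 0.142). PyMT-N tumor cells held 82747, in 3559 cells, 96.4% (95.7 to 97.0%), at 980 CPM (973 to 986). The log2 ratio was -13.63 (-14.69 to -12.75). In PyMT-N the median cell held 16 Krt18 UMIs, with 2 at the 10th and 51 at the 90th percentile and 255 at the most. The 3424 PyMT-N cells with 2 or more UMIs all lay above every PyMT-M cell.

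Counts of 3′ ends are not scaled by gene length, since each molecule is counted once, and keratins are set beside each other within a library on that basis. Whether molecules of each keratin were counted with like efficiency was not tested. Krt18 gave 1.24 UMIs for each Krt8 UMI in PyMT-N tumor cells and 0.000292 in PyMT-M. Over all 53 keratin genes, Krt8 took 99.1% of the keratin UMIs of PyMT-M tumor cells, and type II outnumbered type I keratin UMIs 164 to 1 (34322 against 209). The most abundant type I keratin there was Krt16, with 176 UMIs. In PyMT-N, Krt18 took 53.9% and Krt8 43.6% of the keratin UMIs, and 0.834 type II UMIs were counted for each of type I. PyMT-M tumor cells thus held many Krt8 UMIs and few of any type I keratin.

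The other keratins of the set were rare in both libraries. Krt7 had 1 UMI in PyMT-M against 42 in PyMT-N, 14 of them in 1 cell, for a log2 ratio of -6.01 (-11.34 to -3.45). Krt19 had 0 and 16 UMIs, the latter in 10 cells, so it was at least 8.16-fold higher in PyMT-N when PyMT-M is set at 3 counts in all its tumor cells. Krt14 had 7 and 27 UMIs, in 7 and 22 cells, a log2 ratio of -2.56 (-4.01 to -1.33). Krt5 had no UMI in either library, for which the exact interval allows a share of up to 0.0705% of PyMT-M and 0.0998% of PyMT-N tumor cells. Each of these 4 keratins was found in under 1% of tumor cells in both libraries.

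Epcam ran the other way. PyMT-M tumor cells held 453 Epcam UMIs in 412 cells, 7.88% (7.16 to 8.64%), at 3.50 CPM (3.19 to 3.84) and with at most 4 UMIs in a cell. PyMT-N tumor cells held 32, at 0.379 CPM (0.259 to 0.535), a log2 ratio of 3.21 (2.69 to 3.77). A single PyMT-N cell carried 28 of these 32 UMIs. This cell of 8303 UMIs also had 1 UMI of Cdh1, 6 of the claudin gene Cldn7, 8 of Krt8, 10 of Krt18 and 2 of Krt19, and none of Vim or Cdh2. Without it, 4 UMIs in 4 cells were left, 0.0474 CPM, and the log2 ratio was 6.21 (4.84 to 8.09). The PyMT-M level was thus low but spread over many cells, whereas that of PyMT-N rested on 1 cell.

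Cdh1 was near the floor in both libraries, with 11 UMIs in 10 PyMT-M cells (0.0851 CPM, 0.0425 to 0.152) and 9 UMIs in 8 PyMT-N cells (0.107 CPM, 0.0487 to 0.202). The log2 ratio of -0.32 had an interval from -1.73 to 1.12, so a difference was not detectable at this depth. Cdh2 was a PyMT-N gene. It had 3545 UMIs in 1458 PyMT-N tumor cells, 39.5% (37.9 to 41.1%), at 42.0 CPM (40.6 to 43.4), with 3 UMIs at the 90th percentile and 27 at the most. PyMT-M tumor cells held 5 Cdh2 UMIs in 5 cells, 0.0387 CPM (0.0126 to 0.0902), a log2 ratio of -10.08 (-11.71 to -8.86). E-cadherin RNA was thus scarce in both libraries, and N-cadherin RNA was found at more than a trace in PyMT-N alone of the 2.

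Vim was the most abundant of the 10 genes and was found in 5229 of the 5231 PyMT-M and 3689 of the 3693 PyMT-N tumor cells. Its level was 6079 CPM (6065 to 6092) in PyMT-M against 2321 CPM (2311 to 2331) in PyMT-N, 2.62-fold higher in PyMT-M with a log2 ratio of 1.39 (1.38 to 1.40). The median PyMT-M cell held 139 Vim UMIs, with 52 and 255 at the 10th and 90th percentiles, and the median PyMT-N cell 42, with 18 and 101. PyMT-M, with almost no Cdh2, was thus the library with more Vim.

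**Figure D1:**
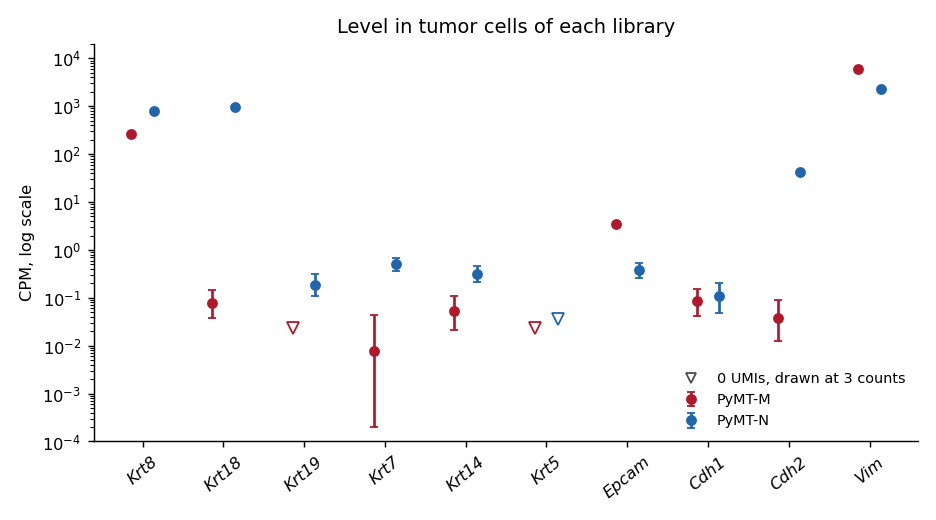
Level of the 10 genes in tumor cells, in CPM on a log axis, for PyMT-M (red) and PyMT-N (blue), with exact 95% Poisson intervals. Open triangles stand for 0 UMIs and are drawn at 3 counts. Krt18 (0.0773 against 980 CPM) and Cdh2 (0.0387 against 42.0 CPM) lie far apart, Vim (6079 against 2321) and Krt8 (264.6 against 792) less so, and Cdh1 overlaps.

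Large differences were common between these libraries. Of 12706 genes with at least 200 UMIs over the tumor cells of both, 42.3% were at least 2-fold apart, 19.7% higher in PyMT-M and 22.5% higher in PyMT-N, and the median log2 ratio was -0.045. Of the 10 genes, 5 reached 200 UMIs (Krt8, Krt18, Epcam, Cdh2 and Vim) and all 5 were at least 2-fold apart, 2 higher in PyMT-M against 3 in PyMT-N, with a median log2 ratio of -1.58. Krt18 and Cdh2 reached the limit through PyMT-N alone (10 and 5 UMIs in PyMT-M), and Epcam through PyMT-M alone (32 UMIs in PyMT-N). The genes were also chosen with earlier results of these data known. The count of 5 is therefore a description and cannot be weighed against the share of all genes. Krt8 and Vim, at 2.99-fold and 2.62-fold, lay near the 2-fold limit, and Krt18 and Cdh2 far past it.

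Tumor cells differed in depth, so each was also thinned to 5000 UMIs, which left out 16 PyMT-M and 2 PyMT-N cells. The share with Krt8 was then 64.2% (62.9 to 65.5%) for PyMT-M and 89.2% (88.1 to 90.1%) for PyMT-N, and that with Krt18 0.0767% (0.0209 to 0.196%) and 87.0% (85.9 to 88.1%). Cdh2 was found in no PyMT-M and 15.9% of PyMT-N cells (14.7 to 17.1%), and Epcam in 1.40% and 0.0271%. Vim was found in 99.96% and 99.8% of cells. The variance of UMIs per cell over their mean, which is 1 for Poisson counts, was 1.69 for Krt8 in PyMT-M against 2.43 in PyMT-N, 4.03 for Krt18 in PyMT-N, 1.63 for Cdh2 in PyMT-N and 4.88 and 2.98 for Vim. Krt8 and Vim in both libraries, and Krt18 and Cdh2 in PyMT-N, were thus spread more widely between cells than counting alone gives.

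**Figure D2:**
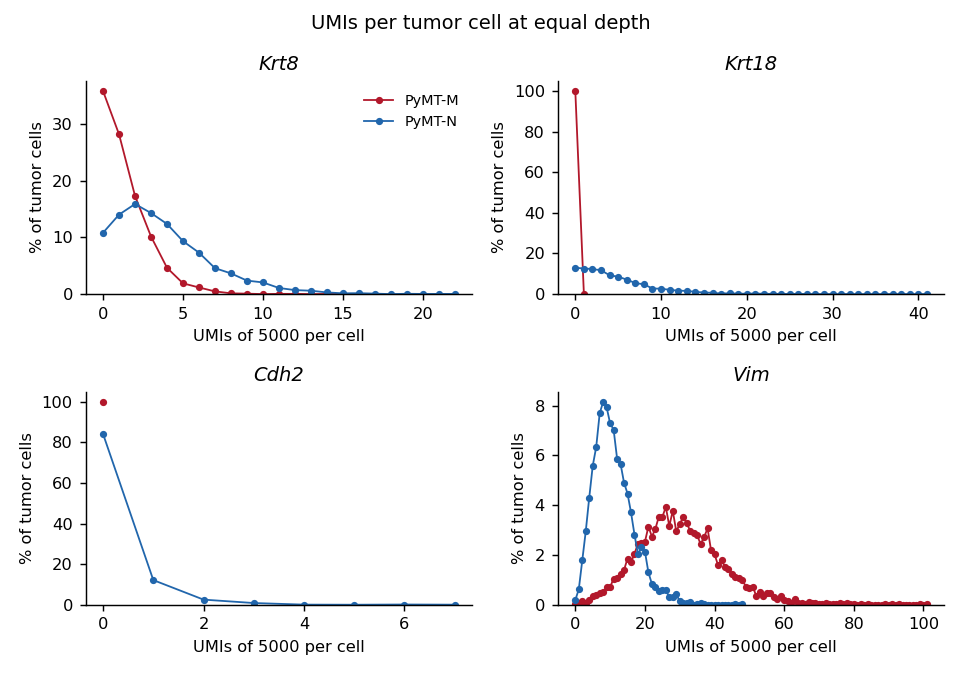
Percent of tumor cells (vertical axis) by the number of UMIs of Krt8, Krt18, Cdh2 and Vim per cell (horizontal axis) after thinning every cell to 5000 UMIs, for PyMT-M (red, 5215 cells) and PyMT-N (blue, 3691 cells). Vim peaks at higher UMIs in PyMT-M (median 29 against 10), and Krt18 runs up to 41 UMIs in PyMT-N and stays at 0 or 1 in PyMT-M.

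Co-detection in the same cell followed the levels. Krt8 and Krt18 were found together in 3519 PyMT-N tumor cells, 95.3% (94.6 to 95.9%), and in 80.5% (79.2 to 81.8%) at 5000 UMIs. In PyMT-M they were found together in 9 cells, 0.172% (0.0787 to 0.326%), and Krt8 alone in 4682, 89.5%. Cells with both Krt8 and Vim made up 89.7% (88.8 to 90.5%) for PyMT-M and 98.1% (97.6 to 98.5%) for PyMT-N, and at 5000 UMIs 64.2% and 89.1%. Krt8 and Vim RNA thus lay in the same cells of both libraries. As Vim was in 99.96% of PyMT-M and 99.9% of PyMT-N tumor cells, the shares with both could only follow those of Krt8. They show little else about how epithelial and mesenchymal filament RNA were combined. A single cell in each library had Krt8 and no Vim, and that of PyMT-N was the cell with 28 Epcam UMIs.

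Cdh2 was not seen without Vim, which nearly every tumor cell had. All 1458 PyMT-N cells with Cdh2 had Vim, against 99.9% of all PyMT-N tumor cells, so little else could be seen. Krt8 was in 1438 of these 1458 cells (98.6%), against 98.1% of all PyMT-N tumor cells. The pairs Cdh1-Cdh2 and Epcam-Cdh2 were found in no tumor cell of either library. The exact interval allows up to 0.0705% of PyMT-M and 0.0998% of PyMT-N cells, although with 8 Cdh1 cells and 5 Epcam cells in PyMT-N few such cells could be seen. Of the 412 PyMT-M cells with Epcam, 404 had Krt8 (98.1%), all had Vim, 1 had Krt18 and none had Cdh1. Of all PyMT-M tumor cells, 89.7% had Krt8 and 99.96% had Vim. Epcam and Cdh1, the textbook epithelial pair, were found together in 1 cell, the PyMT-N cell with 28 Epcam UMIs. Krt14 was seen with Krt8 in all 7 PyMT-M and all 22 PyMT-N cells that had it. It could not be seen with Krt5, which had no UMI in either library. Krt8 was with Krt19 in all 10 PyMT-N cells with Krt19, and with Krt7 in 15 of 16. As Krt8 was in 89.7% of all PyMT-M and 98.1% of all PyMT-N tumor cells, these pairs with Krt8 show little else.

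**Figure D3:**
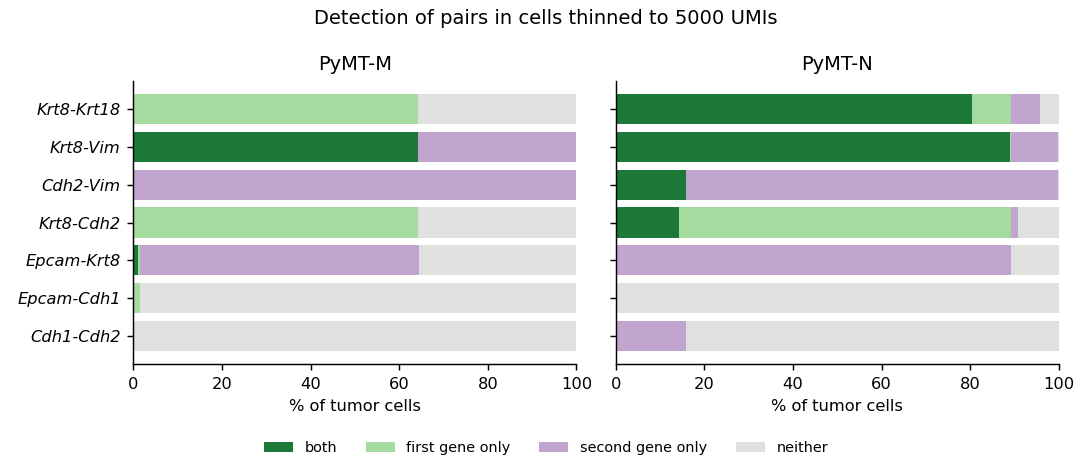
Percent of tumor cells, thinned to 5000 UMIs, in which both genes of a pair, the first only, the second only or neither had a UMI (7 of the 14 pairs), in PyMT-M on the left and PyMT-N on the right. Krt8 and Krt18 were together in 80.5% of PyMT-N cells and 0.0384% of PyMT-M cells, and Krt8 and Vim in 89.1% and 64.2%.

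The reference gates show how much of these RNAs lies outside tumor cells. Cells in 1 gate only numbered 520 endothelial, 47 immune and 45 fibroblast cells for PyMT-M and 1430, 79 and 59 for PyMT-N, and 28 and 125 cells lay in several gates. The median endothelial cell was shallower, at 7798.5 UMIs for PyMT-M and 13697 for PyMT-N. In endothelial cells Krt8 was at 145 CPM in 26.0% of PyMT-M cells (22.2 to 30.0%) and 226 CPM in 22.2% of PyMT-N cells (20.0 to 24.4%). Krt18 was at 284 CPM in 22.4% of PyMT-N endothelial cells (20.2 to 24.6%), and had 1 UMI in those of PyMT-M. At 5000 UMIs Krt8 was in 19.7% of PyMT-M and 15.9% of PyMT-N endothelial cells, below the shares in tumor cells. At 10000 UMIs, which 182 of the PyMT-M and 1057 of the PyMT-N endothelial cells reached, it was in 59.9% (52.4 to 67.1%) and 23.9% (21.4 to 26.6%) of them, against 81.6% and 96.4% of tumor cells.

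Krt18 and Krt8 of PyMT-N stood in a similar ratio inside and outside tumor cells. Krt18 per Krt8 UMI was 1.24 in tumor, 1.25 in endothelial, 1.04 in immune and 1.04 in fibroblast cells of PyMT-N. In PyMT-M, the Krt8 UMIs per 100 UMIs of Rhox5, a homeobox gene abundant in these tumor cells and chosen after its values were seen, were 39.8, 39.3, 36.3 and 35.7 in the same order. Per 100 UMIs of Spp1, chosen in the same way, they were 15.3, 14.5, 13.1 and 7.68. For PyMT-N the values per 100 Spp1 UMIs were 3.21, 3.71, 4.64 and 1.69, and in both libraries fibroblasts had the lowest. Immune cells had Krt8 at 197 CPM in PyMT-M against 381 in PyMT-N, and fibroblasts had it at 93.9 and 77.7. In the endothelial gate Krt8 was higher in cells with few gate UMIs. Cells with 2 to 9 gate UMIs (96 in PyMT-M against 185 in PyMT-N) had Krt8 at 258 and 766 CPM, close to the tumor cells, while those with 10 or more (424 and 1245) had it at 93.0 and 121 CPM, in 16.3% and 16.0% of cells. The parts of free RNA and of droplets with more than 1 cell in these values were not tested.

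Compared with endothelial cells, Krt8 was 1.83-fold higher in tumor cells of PyMT-M (log2 0.87, 0.78 to 0.96) and 3.50-fold higher in those of PyMT-N (log2 1.81, 1.77 to 1.85). Against the endothelial cells with 10 or more gate UMIs the PyMT-M log2 ratio was 1.51, past the 2-fold limit. Krt18 was 3.45-fold higher in tumor cells of PyMT-N and Cdh2 3.64-fold (log2 1.86, 1.69 to 2.05). In PyMT-N 10.5% of 12018 genes were at least 2-fold higher in tumor than in endothelial cells, and in PyMT-M 3.25% of 11400. Cdh2 in PyMT-N stood at 42.0 CPM in tumor, 16.2 in fibroblast, 11.5 in endothelial and 9.01 in immune cells, and the intervals of the last 3 overlapped. In PyMT-M it was the other way, with 8 Cdh2 UMIs in 520 endothelial cells (1.18 CPM) against 5 in 5231 tumor cells, a log2 ratio of tumor over endothelial cells of -4.94 (-6.89 to -3.14). Of these 8 UMIs, 5 lay in the 96 cells with 2 to 9 gate UMIs (2.35 CPM). The 424 cells with 10 or more gate UMIs held 3 (0.647 CPM), so this order rests on few UMIs.

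Vim did not mark tumor cells. In PyMT-M it was at 6316 CPM in endothelial, 6079 in tumor, 5061 in immune and 4135 in fibroblast cells. In PyMT-N the order was endothelial at 5247, tumor at 2321, fibroblast at 1893 and immune at 1561 CPM, and no neighbouring intervals in either order overlapped. These intervals cover counting error only and leave out the spread between cells. Endothelial cells differed little between the libraries (log2 0.27, 0.25 to 0.28), whereas tumor cells differed by 1.39, immune cells by 1.70 and fibroblasts by 1.13. The immune and fibroblast gates held only 47 and 45 cells for PyMT-M and 79 and 59 for PyMT-N. In PyMT-M they had Rhox5, at 665 CPM in tumor cells, at 543 and 263 CPM. The part of tumor-cell RNA in their Vim was not tested. In PyMT-N Vim was 2.26-fold higher in endothelial than in tumor cells, where 14.3% of genes were at least 2-fold higher in endothelial cells, and in PyMT-M the 2 were 1.04-fold apart, where 10.1% were.

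Epcam and Cdh1 in the reference gates came from few cells. Epcam was at 2.37 CPM (1.35 to 3.84) in PyMT-M endothelial cells, an interval that overlapped that of tumor cells, and had no UMI in 1430 PyMT-N endothelial cells. In the PyMT-N immune gate Epcam was at 8.11 CPM (9 UMIs in 7 cells) and Cdh1 at 13.5 CPM (15 UMIs in 6 cells), above both tumor cell values. There, 5 cells with at least 2 UMIs of Epcam or Cdh1 together held 13 of the Cdh1 UMIs, 88 Ptprc and 82 Tyrobp UMIs, 1 Krt8 UMI and no Krt18. In PyMT-N the level of Cdh1 was thus higher in the immune gate than in tumor cells.

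**Figure D4:**
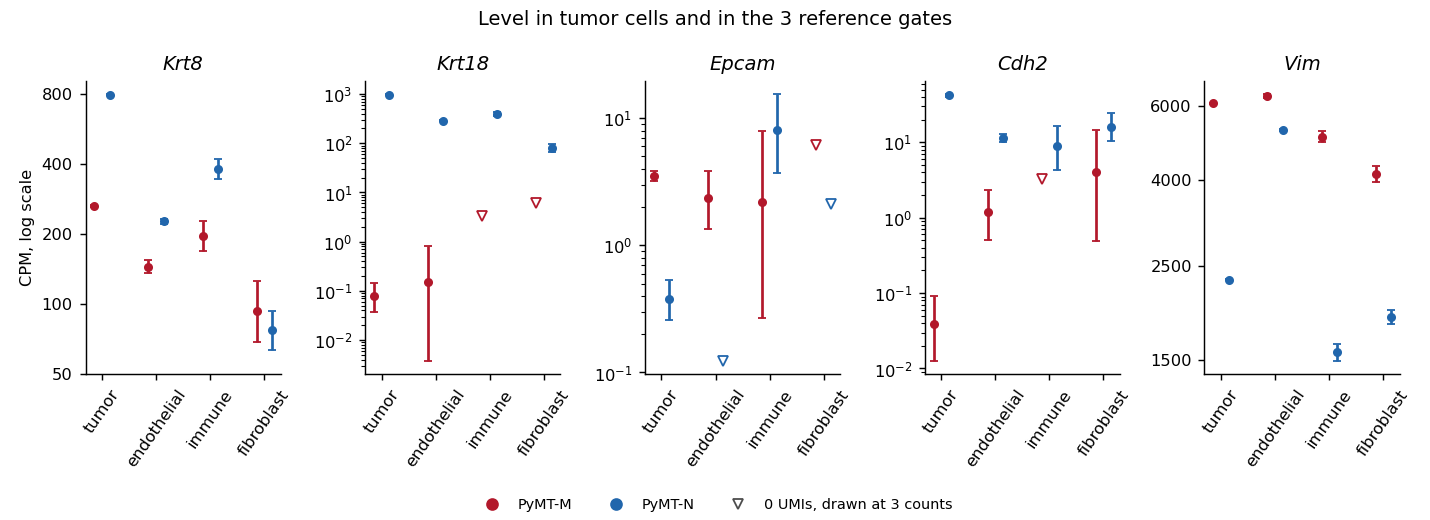
Level of Krt8, Krt18, Epcam, Cdh2 and Vim in tumor cells and in the endothelial, immune and fibroblast gates, in CPM on log axes that differ between panels, with exact 95% Poisson intervals, for PyMT-M (red) and PyMT-N (blue). Open triangles stand for 0 UMIs and are drawn at 3 counts of that gate. Krt8 falls from 792 CPM in PyMT-N tumor cells to 77.7 in fibroblasts, and Vim lies between 4135 and 6316 CPM in the PyMT-M gates.

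Within a library, Vim was higher in cells with more keratin. Cells were binned by their Krt8 and Krt18 UMIs of 5000. In PyMT-M, Vim was at 5384 CPM in the 1866 cells with none, 6170 in the 1471 with 1, 6480 in the 903 with 2 and 6887 in the 975 with 3 to 16. In PyMT-N it was at 1914 CPM in the 890 cells with 0 to 3, then 2218, 2389 and 2458, and 2683 in the 671 cells with 14 to 47. Median UMIs per cell went from 18793 in the lowest to 22719 in the highest of the PyMT-N bins and lay between 23477 and 24354 in PyMT-M, and their part in this was not tested. Cdh2 showed no such order in PyMT-N, at 44.6, 43.5, 39.0, 43.6 and 39.1 CPM over the 5 bins. PyMT-N cells with and without Cdh2 differed little in Vim (2302 and 2335 CPM) and in Krt18 (923 and 1020 CPM). Cells of 1 library share their source, so these are descriptions.

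Cycling cells, with at least 2 UMIs of Mki67 and Top2a, were 3843 of the 5231 PyMT-M but 257 of the 3693 PyMT-N tumor cells. In PyMT-M, Krt8 was at 256 CPM in cycling and 298 in other cells and Vim at 6009 and 6340. In PyMT-N, Vim was higher in cycling cells (2990 against 2241 CPM), Krt18 lower (858 against 994), Krt8 similar (804 against 791) and Cdh2 at 47.3 and 41.3 CPM. All 10 Krt18 UMIs of PyMT-M lay in cycling cells, which were deeper, with a median of 25809 UMIs against 19650.5 in the others, and the part of depth was not tested.

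The 332 PyMT-M tumor cells with a UMI of Cdh5, which encodes the sorted VE-cadherin (CD144), had less of these RNAs than the 4899 without. Krt8 was at 137 CPM (130 to 145) in them against 275, Vim at 4184 against 6228 and Epcam at 0.531 (0.172 to 1.24) against 3.74. The 181 cells with Il24, a cytokine gene, had Krt8 at 169 CPM and Vim at 4194, and the 58 cells with both had Krt8 at 107 CPM (93.0 to 123) and Vim at 3306. In PyMT-N the 139 cells with Cdh5 had Krt8 at 905 CPM and Vim at 2353, against 787 and 2319 in the others. In PyMT-M the 412 cells with Epcam had Krt8 at 303 CPM against 261 and Vim at 6541 against 6032, with a higher median depth (26536.5 against 23552 UMIs).

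Among the relatives of the 10 genes, some further keratins and cadherins also lay far apart. Of 47 other keratins, 2 reached 200 UMIs, and both were higher in PyMT-N, as were 22.5% of all genes tested at the 2-fold limit. Krt76, a type II keratin, had no UMI in PyMT-M against 2840 in PyMT-N (33.6 CPM), a log2 ratio of at most -10.50, and Krt10, a type I keratin of the epidermis, had 4 and 899 UMIs (log2 -8.43, -10.31 to -7.07). Both thus reached the limit through PyMT-N alone. Keratins under the limit, named after their values were seen, went either way. Krt16 (176 UMIs in PyMT-M against 23 in PyMT-N) and Krt80 (108 against 7) were higher in PyMT-M. Krt79 (1 against 47) and Krt1 (0 against 24) were higher in PyMT-N. Of 21 other cadherins, 6 reached 200 UMIs, 1 higher in PyMT-M against 2 in PyMT-N by at least 2-fold. All genes tested gave 19.7% and 22.5%, so these counts are not far from the background. Cdh13 (58 UMIs in PyMT-N) reached the limit through PyMT-M alone, and Cdh10 (2 UMIs in PyMT-M) through PyMT-N alone. Cdh13, T-cadherin, which has no cytoplasmic tail, was at 1123 CPM in PyMT-M, in 98.8% of tumor cells, and at 0.687 CPM in PyMT-N (log2 10.67, 10.30 to 11.07). Cdh10 was at 0.0155 and 88.6 CPM (log2 -12.48, -15.53 to -10.63), and Cdh24 at 0.588 and 1.79 CPM (log2 -1.60). Cdh5, at 3.82 and 1.99 CPM, Cdh15, at 1.15 and 0.639, and Cdh23, at 2.56 and 2.60, were within 2-fold. Of all cadherins counted here, Cdh13 thus had the most UMIs in PyMT-M tumor cells and Cdh10 the most in PyMT-N, ahead of Cdh2.

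Many cadherins act through catenins and other partners, some of which tie them to actin. Of 6 such partners all reached 200 UMIs, 3 were at least 2-fold higher in PyMT-N and none in PyMT-M, with a median log2 ratio of -1.21. Over all genes tested, 42.3% were 2-fold apart, 22.5% being higher in PyMT-N, so a count of 3 among 6 genes is not far from the background. Jup, plakoglobin, was at 7.56 CPM in PyMT-M against 209 in PyMT-N (log2 -4.79). Ctnna1, alpha-catenin, was at 75.8 and 218 CPM (log2 -1.53), Ctnnd1, p120-catenin, at 47.7 and 129 (log2 -1.44), and Vcl, vinculin, at 82.3 and 164 (log2 -0.99). Ctnnb1, beta-catenin, was at 94.3 and 151 CPM (log2 -0.68) and Afdn, afadin, at 97.8 and 74.3 (log2 0.40).

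Of 12 regulators known to drive epithelial-mesenchymal transition, 11 reached 200 UMIs. At the 2-fold limit 1 was higher in PyMT-M against 6 in PyMT-N (19.7% and 22.5% of all genes tested), with a median log2 ratio of -1.09. Sox4 and Foxc2 reached 200 UMIs through PyMT-N alone, and Twist2 (187 UMIs in PyMT-N) through PyMT-M alone, so these counts are a description. Of the direct repressors of Cdh1, Zeb1 was at 150.5 CPM in PyMT-M against 252 in PyMT-N (log2 -0.75), Zeb2 at 211 and 129 (log2 0.71) and Snai1 at 30.6 and 100.5 (log2 -1.71). Twist1 was at 93.3 and 199 CPM (log2 -1.09), while its relative Twist2 was at 108 CPM in PyMT-M against 2.21 in PyMT-N (log2 5.60, 5.39 to 5.82). Sox4 had 8 UMIs in PyMT-M against 44278 in PyMT-N (log2 -13.05, -14.26 to -12.07), and Foxc2 had none in PyMT-M against 1312 in PyMT-N (log2 at most -9.39). Tcf4 was at 168 and 832 CPM (log2 -2.31) and Hmga2, a chromatin protein, at 605 and 1464 (log2 -1.27). Prrx1, at 145 and 205 CPM, and Sox9, at 153 and 112, were within 2-fold. Snai2 did not reach 200 UMIs, with 10 and 137.

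**Figure D5:**
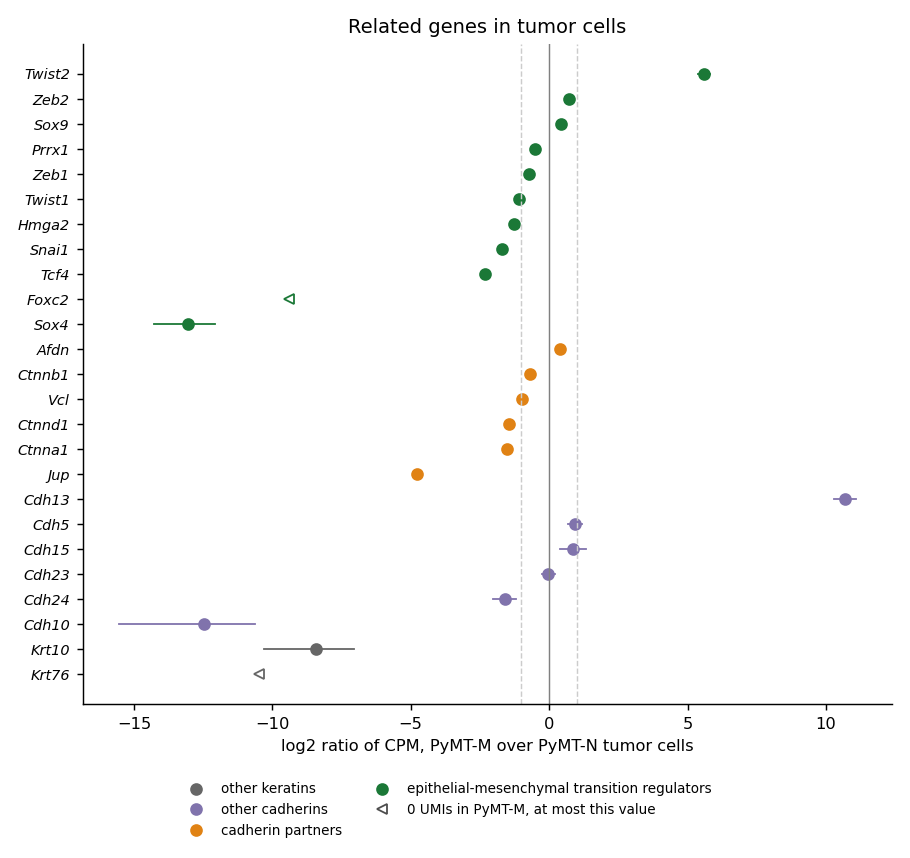
Log2 ratio of CPM, PyMT-M over PyMT-N tumor cells, with exact 95% intervals, for other keratins, other cadherins, cadherin partners and transition regulators with at least 200 UMIs. Dashed lines mark 2-fold, and open triangles stand for genes with no UMI in PyMT-M, whose ratio is at most the value drawn. Cdh13 (10.67) and Twist2 (5.60) lie far to the PyMT-M side, and Sox4 (-13.05), Cdh10 (-12.48), Krt76 and Foxc2 far to the PyMT-N side.

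Of 20 mesenchymal genes other than Vim and Cdh2, 19 reached 200 UMIs. At least 2-fold higher were 1 in PyMT-M against 11 in PyMT-N, where all genes gave 19.7% and 22.5%, with a median log2 ratio of -1.42. Fn1, Postn and Thy1 (113, 108 and 41 UMIs in PyMT-M) reached 200 UMIs through PyMT-N alone. Loxl2 (96 UMIs in PyMT-N) did so through PyMT-M alone, so these counts are a description. Fn1, fibronectin, was at 0.874 CPM in PyMT-M against 5016 in PyMT-N (log2 -12.49), Fbn1, fibrillin, at 2.63 and 483 (log2 -7.52) and Postn, periostin, at 0.835 and 120 (log2 -7.16). Loxl2, a collagen cross-linking enzyme, was at 84.9 CPM in PyMT-M against 1.14 in PyMT-N (log2 6.22). Tgfbi, at 98.7 and 60.2 CPM, came next and was within 2-fold. Vim, 2.62-fold higher in PyMT-M, stood on the other side from 11 of these 19 genes.

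Of 28 other genes of epithelial adhesion and polarity, 10 reached 200 UMIs, 6 higher in PyMT-M against 3 in PyMT-N by at least 2-fold. All genes tested gave 19.7% and 22.5%. Ocln, Pkp3, Ovol1, Elf3 and St14 reached 200 UMIs through PyMT-M alone (3, 69, 2, 2 and 3 UMIs in PyMT-N). Dsp and Perp did so through PyMT-N alone (16 and 0 UMIs in PyMT-M). These counts are therefore a description and cannot be weighed against the share of all genes. The 6 higher in PyMT-M were all scarce there apart from Spint2, a protease inhibitor. Ocln, occludin of tight junctions, was at 7.44 CPM in PyMT-M against 0.0355 in PyMT-N (log2 7.71), and the epithelial transcription factors Ovol1 (log2 6.70) and Elf3 (log2 6.40) were at 2.47 and 2.00 CPM in PyMT-M. Higher in PyMT-N were the desmosomal genes Perp (none against 244 UMIs), Dsp, desmoplakin, at 0.124 and 6.89 CPM (log2 -5.80), and Jup. Another desmosomal gene, Pkp3, plakophilin 3, named after its values were seen, was higher in PyMT-M, at 4.35 and 0.817 CPM (log2 2.41, 2.05 to 2.79).

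Of 15 luminal mammary genes 7 reached 200 UMIs and 5 were at least 2-fold higher in PyMT-N (22.5% of all genes), none in PyMT-M (19.7%). Gata3, Esr1, Wfdc18 and Cd14 (7, 67, 1 and 94 UMIs in PyMT-M) reached the limit through PyMT-N alone. The count is therefore a description and cannot be weighed against the share of all genes. Gata3, a luminal transcription factor, had 7 UMIs in PyMT-M against 8312 in PyMT-N (98.4 CPM, log2 -10.83), Esr1, the estrogen receptor, was at 0.518 and 26.6 CPM (log2 -5.68), and Wfdc18, a milk protein gene, had 1 and 277 UMIs (log2 -8.73), the latter in 0.135% of PyMT-N tumor cells. The highest 3 ratios were those of Areg (log2 -0.17), Lcn2 (log2 -0.80) and Aldh1a3 (log2 -2.56). Of 13 basal and myoepithelial genes 8 reached 200 UMIs, with a median log2 ratio of -1.04. By at least 2-fold, 1 was higher in PyMT-M against 4 in PyMT-N (19.7% and 22.5% of all genes). Trp63, Nrg1 and Tagln (1, 49 and 184 UMIs in PyMT-M) reached the limit through PyMT-N alone, so these counts are a description. Acta2, smooth muscle actin, was at 222 and 54.9 CPM (log2 2.02). Within 2-fold, Procr had a log2 ratio of 0.82 and Itga6 one of 0.73. Trp63, the basal regulator p63, had 1 and 306 UMIs (log2 -8.87), Nrg1 was at 0.379 and 12.5 CPM (log2 -5.04) and Tagln at 1.42 and 7.28 (log2 -2.36).

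Of intermediate filaments and linkers other than keratins, 5 of 9 measured genes were at least 2-fold higher in PyMT-M (19.7% of all genes) and 1 in PyMT-N (22.5%), with a median log2 ratio of 1.35. Des, desmin, had 429 UMIs in PyMT-M against 1 in PyMT-N (log2 8.13), Eppk1, epiplakin, was at 7.69 and 0.0829 CPM (log2 6.54), and Lmnb2, a nuclear lamin, at 14.2 and 3.65 (log2 1.96). Evpl, envoplakin, had 2 and 276 UMIs (log2 -7.72), while Plec, plectin, at 290 and 249 CPM, and Lmnb1, at 47.4 and 27.1, were within 2-fold.

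Genes most like the 10 were sought by the Pearson correlation of log2(CPM + 1) over 8 groups, the 4 kinds of cell in both libraries, which share tumors, depth and any free RNA. Nearest to Krt8 were Tmem37 (r = 0.989), Itpr3 (0.988) and Ppp4r2 (0.987), whereas Krt18 had r = 0.535 with it. Nearest to Vim were Kti12 (0.984), Agpat4 (0.977) and Tpd52l2 (0.974), to Cdh2 Dctn4 (0.991), S100b (0.991) and Zfta (0.989), and to Epcam Naip6 (0.990), Itgb7 (0.973) and Pde6h (0.969). Epcam and its 3 nearest genes were all highest in the PyMT-N immune gate. Epcam was at 8.11 CPM there, from 9 UMIs in 7 of 79 cells. Naip6 was at 5.41 CPM there, Itgb7 at 72.1 and Pde6h at 5.41. This likeness thus rests on few Epcam UMIs outside tumor cells. Krt14 had too few UMIs. Cdh2 and Krt18 had r = 0.889 with each other and Cdh2 and Vim r = -0.715, as descriptions over 8 points of 2 libraries.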

How the data were processed

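Droplet-based 3′ (v3.1) libraries of CD31+ CD144+ sorted cells were made by the authors from 3 pooled tumors each of PyMT-M and PyMT-N. Unnormalized counts of UMIs, by gene and barcode, were deposited by the authors, made with Cell Ranger 8.0.0 on mm39 per the submitters' processing notes. The annotation was not stated, and promoter sequences come from RefSeq (GRCm38.p6). The methods name collagenase II with dispase II for dissociation, the sample protocol collagenase I. The members and lists were chosen with earlier results of these data known. Counts of 7821 PyMT-M and 6974 PyMT-N barcodes were filtered and gated as the report states, summed per gate and library and scaled to CPM, with exact Poisson intervals for CPM, exact conditional intervals for ratios and Clopper-Pearson intervals for shares, all at 95% and for counting error only. A gene with no UMI was set against 3 counts over the summed cells. Doublets were kept. Scrublet's automatic threshold called 1 PyMT-M barcode (0.0128%), so it did not work there, and 149 PyMT-N barcodes (2.14%), and leaving out the 6% with the highest scores was an alternative. Named genes are the 10 members, the gate genes, all other keratins, cadherins and transition regulators with at least 200 UMIs, and from every other list the 3 highest and 3 lowest log2 ratios, plus the 3 genes most like each of Krt8, Epcam, Krt14, Vim and Cdh2. Some genes that this rule picks are not reported here. Other genes named, such as Rhox5, Spint2, Krt16 and Il24, were chosen after their values were seen. The ratio was tested on simulated Poisson counts, the model that its interval assumes, so spread between cells or tumors was not covered. Python 3.11.15, numpy 2.4.6, scipy 1.17.1, scanpy 1.11.5, R 4.3.3 and edgeR 4.0.16 (TMM factors only) were used.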

Additional observations from a re-analysis of the deposited data

How the results depend on the processing

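All 5 genes with at least 200 UMIs stayed at least 2-fold apart in the same direction under each of the 11 alternatives, of which leaving out the PyMT-N cell with most Epcam UMIs was chosen after seeing the data. Over these, the log2 ratio ran from -1.64 to -1.38 for Krt8, from -14.19 to -12.82 for Krt18, from -10.08 to -9.49 for Cdh2, from 1.35 to 1.59 for Vim and from 1.86 to 6.82 for Epcam, lowest as a mean over cells of per-cell CPM and highest with the stricter tumor gate. Cdh1 ran from -0.33 to 0.25. The counts that moved were the following. With at least 2 UMIs needed for detection, 1 in place of 3 of the 14 pairs was found in at least 1% of PyMT-M cells. With 1 UMI in each library in place of 200 in all, 9587 genes were at least 2-fold apart in place of 5370, 3922 in place of 2509 higher in PyMT-M and 5665 in place of 2861 higher in PyMT-N. Of 15 ratios of these 5 genes to the reference gates in PyMT-M, 1 was at least 2-fold higher in tumor cells. There were 3 with an endothelial gate of 10 UMIs and 4 with at least 200 detected genes and the same mitochondrial limit. Krt8 over endothelial cells then had log2 ratios of 1.51 and 1.02. The other 56 counts stayed within 1.5-fold. Of the single values, 452 stayed within their counting interval and 152 moved past it or, as bounds against a gene with no UMI, had none, with none of them to a 2-fold difference the other way. No paired analysis was possible because each group is 1 library. Leaving out a replicate was not possible for the same reason.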
